A study of Mus musculus with 60 samples.

Results

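The 10 genes described here carry out the loading of peptides onto MHC class I molecules or control that pathway: H2-K1 and B2m, Tap1, Tap2, Tapbp, Psmb8, Psmb9, Psmb10, Erap1 and Nlrc5. They were measured by 20 of the 45101 probe sets of the array, taken where the platform annotation names 1 of these genes and no other. Of the 20 probe sets, 18 passed the filter on dim signals, and each of the 10 genes kept at least 1. A further 2 probe sets name H2-K1 together with another gene and were not used. Where a gene had several probe sets, its value is that of the brightest, and the others are given where a call or a size differs.

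The study set lymphomas that arise early in life against lymphomas that arise late in Em-myc transgenic mice, in which Myc is driven by the immunoglobulin heavy chain enhancer and B cell tumours develop. The 60 Affymetrix Mouse430_2 arrays hold 25 early lymphomas (32 to 76 days of age at onset), 25 late lymphomas (253 to 649 days), 6 lymph nodes of young wild-type mice (38 to 73 days) and 4 tissues of old wild-type mice, of which 1 is a spleen (304 days) and 3 are lymph nodes, up to 438 days of age. Both lymphoma groups carry the transgene and no group of transgenic mice without a tumour was analysed here. The tissue from which each lymphoma was taken is not given in the labels. Each array holds RNA of a snap-frozen tissue, labels name no shared mouse or batch, and the p-values rest on how far these arrays scatter, which may be technical in part.

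Class I molecules are built in the endoplasmic reticulum from a heavy chain such as H2-K1 and the light chain B2m. Peptides for them are cut in the cytosol by proteasomes, in which 3 catalytic subunits (Psmb5, Psmb6 and Psmb7) can be replaced by Psmb8, Psmb9 and Psmb10 to form the immunoproteasome. The Tap1 and Tap2 transporter carries the peptides into the endoplasmic reticulum, Erap1 trims them, and tapasin (Tapbp) holds the empty class I molecule at the transporter. Nlrc5 is a transactivator of class I genes, and interferons raise most of the pathway in lymphoid cells.

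Tap1, Psmb9, Psmb8 and Tap2 are direct neighbours on chromosome 17 of the mouse, the chromosome that also holds Tapbp and H2-K1. Promoter windows from 250 bases before to 25 bases after the RefSeq transcript start were read from build GRCm38.p6 for 8 of the 10 genes; Tap2 and Nlrc5 had no entry. The windows of Tap1 and Psmb9 are the same 275 bases read on opposite strands, with 225 bases between the 2 starts, so these genes share 1 promoter region. It is shown once, in the direction of Tap1, because both genes were lower in the lymphomas. B2m and H2-K1 are shown as the 2 parts of the class I molecule, and Erap1 and Psmb10 as the 2 genes that were not lower in early lymphoma. Capitals mark 3 motifs, searched on both strands: AANNGAAA, a core bound by interferon regulatory factors, CACGTG, an E-box to which Myc with its partner can bind, and CCAAT. These motifs were chosen after the sequences had been seen.
Tap1 and Psmb9 (chr17:34187306-34187580, plus strand): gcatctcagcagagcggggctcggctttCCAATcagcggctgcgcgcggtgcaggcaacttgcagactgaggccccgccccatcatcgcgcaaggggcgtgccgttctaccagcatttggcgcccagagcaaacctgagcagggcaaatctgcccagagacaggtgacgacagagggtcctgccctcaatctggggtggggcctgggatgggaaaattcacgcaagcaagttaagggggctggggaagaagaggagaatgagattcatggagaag
B2m (chr2:122147437-122147711, plus strand): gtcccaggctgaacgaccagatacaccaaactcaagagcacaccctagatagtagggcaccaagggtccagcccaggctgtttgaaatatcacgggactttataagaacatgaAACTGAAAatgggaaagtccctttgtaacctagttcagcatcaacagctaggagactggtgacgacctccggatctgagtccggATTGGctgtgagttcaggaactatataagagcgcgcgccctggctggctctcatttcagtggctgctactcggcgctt
H2-K1 (chr17:34000323-34000597, minus strand): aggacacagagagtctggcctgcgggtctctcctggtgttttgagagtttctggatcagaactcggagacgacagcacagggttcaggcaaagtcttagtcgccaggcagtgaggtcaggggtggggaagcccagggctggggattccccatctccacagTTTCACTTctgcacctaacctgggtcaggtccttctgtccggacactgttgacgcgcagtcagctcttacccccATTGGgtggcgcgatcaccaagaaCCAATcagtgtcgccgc
Erap1 (chr13:74639603-74639877, plus strand): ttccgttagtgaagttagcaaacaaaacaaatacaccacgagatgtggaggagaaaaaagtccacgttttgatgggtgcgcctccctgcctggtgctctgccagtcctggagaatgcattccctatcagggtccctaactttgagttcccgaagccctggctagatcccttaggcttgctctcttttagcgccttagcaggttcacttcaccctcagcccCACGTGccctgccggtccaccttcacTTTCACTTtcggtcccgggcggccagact
Psmb10 (chr8:105938368-105938642, minus strand): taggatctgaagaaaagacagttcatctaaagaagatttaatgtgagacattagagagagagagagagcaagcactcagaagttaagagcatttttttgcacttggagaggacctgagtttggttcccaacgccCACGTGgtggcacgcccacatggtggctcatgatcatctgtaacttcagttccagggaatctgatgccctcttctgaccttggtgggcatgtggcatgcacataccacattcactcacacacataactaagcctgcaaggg

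AANNGAAA was present in 3 of the 8 windows, those of B2m, H2-K1 and Erap1, beside 23% of 27025 promoters of the same length. It began 137 bases before the start in B2m and 90 bases before it in H2-K1, while the match in Erap1 began 4 bases before the start and ran across it. CACGTG was present in 2 windows, Psmb10 and Erap1, 116 and 30 bases before the start, beside 6.77% of all promoters. CCAAT was present in 5 windows (B2m, Tapbp, H2-K1, Psmb9 and Tap1) beside 36.3% of all promoters. Psmb9 and Tap1 have the same window, so 1 site is counted for both. No motif overlapped another in the windows shown. A match describes the letters and not a bound site.

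Myc, the gene of the transgene, was measured as a check of the labels: its level (log2 of intensity + 15.7, the scale of every level below) was 13.71 ± 0.29 in early lymphoma, 13.55 ± 0.39 in late lymphoma and 10.19 ± 0.30 in normal tissue (SD), with every lymphoma above every normal tissue. The B cell markers (mean level of 7 measured genes) had a median of 12 in early lymphoma and in normal tissue and of 11.5 in late lymphoma, where 5 late lymphomas lay between 8.36 and 9.64 and 3 more at 9.73 to 9.74. Early lymphoma 6 stood apart with a B cell level of 8.87, where the next lowest early lymphoma was at 11.15, and its NK marker level of 8.5 was the second highest of its group; values without it are given where a call differs. The 9 measured T cell markers had mean levels of 6.71 to 9.01 in early lymphoma, 7.23 to 11 in late lymphoma and 10.8 to 11.8 in normal tissue. No probe set of any gene was listed at 0. In bulk tissue, fewer cells of a type and less RNA per cell cannot be told apart, and that holds for every gene below.

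The first comparison asks how the pathway stood in early lymphoma against the 10 normal tissues. Of the 10 genes, 8 were lower and 1, Erap1, was higher at an adjusted p under 0.05 (limma, Benjamini-Hochberg adjustment over 27094 probe sets), while Psmb10 did not pass. The background was large: 39.8% of all probe sets were called lower and 28.4% higher. The median log2 change of the 10 genes was -0.86, with a range of -2.06 to 0.29, and that of all probe sets was -0.12. By probe set, 15 of 18 were lower and 2 were higher. After a ± sign, log2 changes carry their standard error and levels their SD.

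**Figure D1:**
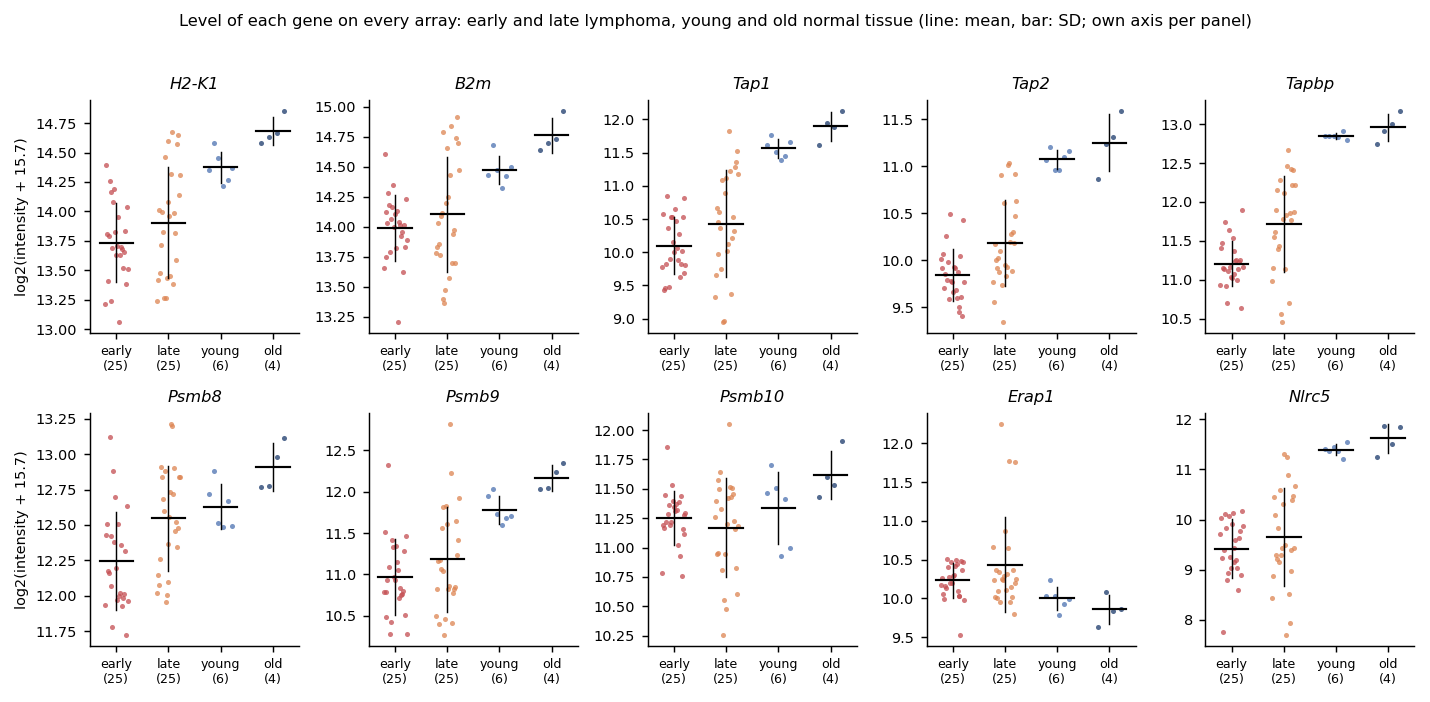
Level, log2(intensity + 15.7), of each of the 10 genes on all 60 arrays, 1 panel a gene, with 25 early and 25 late lymphomas and 6 young and 4 old normal tissues; points are arrays, horizontal lines group means and vertical bars SD. In Tap1, Tap2, Tapbp and Nlrc5 all 25 early lymphomas lie below all 10 normal tissues, whereas Psmb10 overlaps between all groups and Erap1 is higher in many lymphomas.

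Both parts of the class I molecule fell. The H2-K1 level ran from 13.06 to 14.40 (median 13.70) in early lymphoma and from 14.21 to 14.58 (median 14.36) in young normal tissue, and was 14.58 in the old spleen and 14.63, 14.66 and 14.86 in the old lymph nodes. Of the early lymphomas, 23 of 25 lay below every normal tissue. The change was -0.76 ± 0.11 (adjusted p = 1.2e-07), a 1.70-fold lower level. All 4 H2-K1 probe sets are of a type whose probes can bind transcripts of related class I genes, so H2-K1 is uncertain as a single gene. The dimmer 3 gave changes of -1.22 ± 0.12, -1.81 ± 0.23 and -1.60 ± 0.17, all called lower and larger than that of the brightest.

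B2m, which pairs with every classical heavy chain, ran from 13.20 to 14.61 (median 14.02) in early lymphoma and from 14.32 to 14.68 (median 14.45) in young normal tissue. Its levels in old normal tissue were 14.64 in the spleen and 14.70, 14.74 and 14.97 in the lymph nodes. Again 23 of 25 early lymphomas lay below all normal tissues, and early lymphomas 2 and 12 were the highest of their group. The change was -0.60 ± 0.09 (adjusted p = 4.9e-07), and the second B2m probe set gave -0.76 ± 0.08.

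The transporter and tapasin fell as well. In the brightest probe set of each of the 3 genes, early lymphoma and normal tissue did not overlap. Such separation was not particular to these genes. All 25 early lymphomas also lay below all normal tissues for Csf1r, Klrd1, Jak1 and Hfe, and 3 of 25 for H2-T3. For this and the other counts of this kind, the share over all probe sets is not given here. Tap1 ran from 9.43 to 10.84 (median 10.01) in early lymphoma and from 11.40 to 11.77 (median 11.56) in young normal tissue, and was 11.61 in the old spleen and 11.95, 11.89 and 12.13 in the old lymph nodes. Its change of -1.60 ± 0.14 was a 3.03-fold lower level (adjusted p = 7.3e-13). A dimmer Tap1 probe set, above the array median on only 10 of 60 arrays, gave -1.32 ± 0.26, with 19 of 25 early lymphomas below all normal tissues. The last 2 were too dim to be kept.

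Tap2, the other chain of the transporter, ran from 9.40 to 10.49 (median 9.79) in early lymphoma against 10.96 to 11.21 (median 11.09) in young normal tissue and 10.86, 11.23, 11.31 and 11.59 in old normal tissue, the spleen first. The change was -1.30 ± 0.10 (adjusted p = 7.7e-15). Tapbp ran from 10.64 to 11.89 (median 11.16) in early lymphoma, while the 6 young normal tissues lay between 12.80 and 12.91 and the old ones at 12.75 (spleen), 12.91, 13.00 and 13.17. Tapbp fell by 1.69 ± 0.10 on the log2 scale, a 3.22-fold lower level (adjusted p = 2.7e-18). The second Tapbp probe set gave -1.37 ± 0.09.

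The 3 immunoproteasome subunits differed from each other. Psmb9 ran from 10.29 to 12.32 (median 10.93) in early lymphoma and from 11.59 to 12.03 (median 11.72) in young normal tissue, and was 12.03, 12.04, 12.24 and 12.35 in old normal tissue. All but 1 early lymphoma, number 6, lay below every normal tissue, and the change was -0.96 ± 0.15 (adjusted p = 3.1e-07). Psmb8 had a change of -0.49 ± 0.11 (adjusted p = 0.00023) with 19 of 25 early lymphomas below all normal tissues, from 11.72 to 13.12 (median 12.18) against 12.49 to 13.11 over all 10 normal tissues. The second, dimmer Psmb8 probe set gave -0.34 ± 0.12 (adjusted p = 0.01), with 0 of 25 early lymphomas below all normal tissues.

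Psmb10 did not pass the test in early lymphoma, at -0.19 ± 0.09 (adjusted p = 0.062). Its levels overlapped in most tissues, with 2 of 25 early lymphomas below every normal one: 10.76 to 11.85 (median 11.28) in early lymphoma, 10.93 to 11.71 in young normal tissue and 11.43 to 11.91 in old normal tissue. With quantile normalization or with the RNA quality ratios as covariates it was called lower (-0.38, adjusted p = 0.00034, and -0.24, adjusted p = 0.011). It was also called lower without early lymphoma 6, its highest value (-0.22, adjusted p = 0.023), and with each array centred on its median its change was 0.15.

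Erap1, the peptidase that trims peptides to length, went the other way. It ran from 9.53 to 10.51 (median 10.27) in early lymphoma, from 9.79 to 10.24 (median 10.01) in young normal tissue, and was 9.63 in the old spleen and 10.09, 9.84 and 9.87 in the old lymph nodes. Of 25 early lymphomas, 13 lay above every normal tissue, and the change was 0.29 ± 0.08 (adjusted p = 0.002). The second Erap1 probe set gave 0.30 ± 0.11 (adjusted p = 0.012). In a single fit over all 60 arrays the change stayed at 0.29 but the adjusted p was 0.11.

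Nlrc5, the transactivator, had the largest change of the 10 genes. It ran from 7.75 to 10.17 (median 9.44) in early lymphoma and from 11.22 to 11.54 (median 11.39) in young normal tissue, and was 11.24 in the old spleen and 11.86, 11.52 and 11.85 in the old lymph nodes. All 25 early lymphomas lay below all 10 normal tissues. The change was -2.06 ± 0.18, a 4.17-fold lower level (adjusted p = 9.3e-13).

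**Figure D2:**
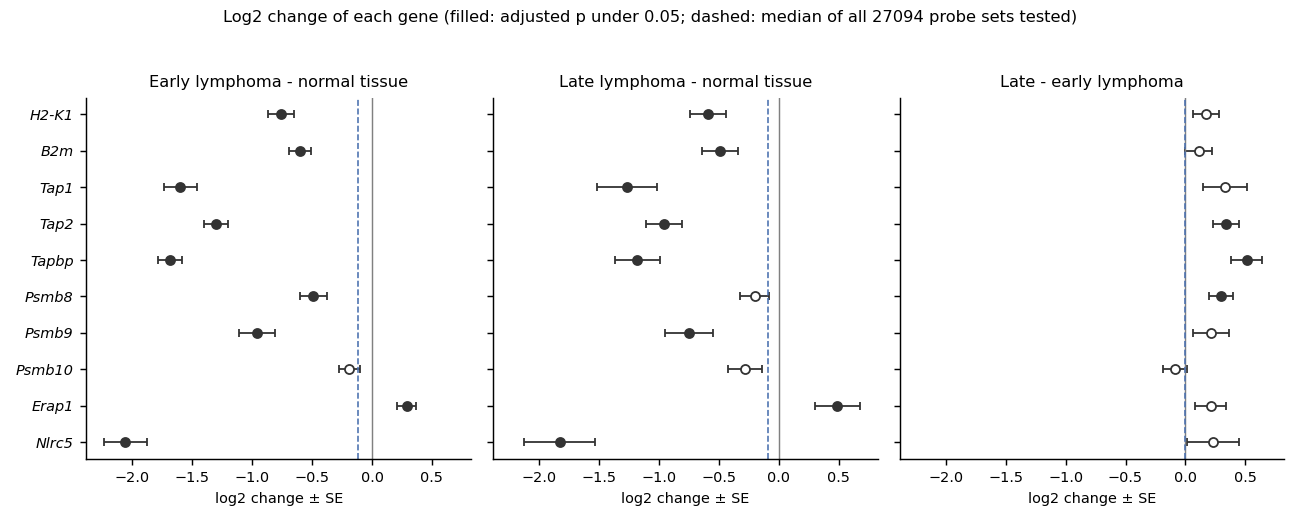
Log2 change with its standard error for each of the 10 genes in early lymphoma against normal tissue, late lymphoma against normal tissue and late against early lymphoma; filled points passed an adjusted p of 0.05 and the dashed line is the median of all 27094 probe sets. Nlrc5, Tapbp, Tap1 and Tap2 lie farthest left in the comparisons with normal tissue, Erap1 lies on the right in all 3, and the changes between late and early lymphoma are small.

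Late lymphoma was set against the same 10 normal tissues, so the 2 comparisons share their controls and are given side by side. Of the 10 genes, 7 were lower and 1 was higher, beside 32.4% of all probe sets lower and 22.4% higher. The median change of the 10 genes was -0.67, from -1.83 to 0.49, and that of all probe sets -0.09. Called lower were Nlrc5 (-1.83 ± 0.30, adjusted p = 3.2e-06), Tap1 (-1.27 ± 0.25, 5e-05), Tapbp (-1.18 ± 0.19, 2.6e-06), Tap2 (-0.96 ± 0.15, 1.2e-06), Psmb9 (-0.75 ± 0.20, 0.0017), H2-K1 (-0.59 ± 0.15, 0.0011) and B2m (-0.49 ± 0.15, 0.0068). The dimmer Tap1 probe set gave -0.65 ± 0.26 (adjusted p = 0.036), and the dimmer 3 of H2-K1 gave -0.89 ± 0.20, -1.28 ± 0.29 and -1.26 ± 0.22, all called lower. Psmb8 (-0.20 ± 0.12, adjusted p = 0.18) and Psmb10 (-0.28 ± 0.14, adjusted p = 0.10) did not pass.

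The late lymphomas overlapped more with normal tissue. Tapbp was the 1 gene in which all 25 late lymphomas lay below all normal tissues, at 10.45 to 12.66 (median 11.83). By the second Tapbp probe set it was 23 of 25. For Tap1 and Nlrc5 this held for 23 of 25, for Tap2 for 21, for H2-K1 and Psmb9 for 18 and for B2m for 17. Nlrc5 ran from 7.70 to 11.31 (median 9.44) in late lymphoma, the widest range of the 10 genes, and late lymphomas 125 and 128 reached 11.31 and 11.25, within the range of normal tissue.

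Erap1 in late lymphoma was 0.49 ± 0.19 higher than in normal tissue (adjusted p = 0.03). Its levels ran from 9.80 to 12.26 (median 10.25), and 13 of 25 late lymphomas lay above all normal tissues. Late lymphomas 120, 129 and 137, at 12.26, 11.78 and 11.76, were the highest. All are among the 5 late lymphomas with the highest plasma cell markers, and without those 5 the change was 0.26 (adjusted p = 0.01). The second Erap1 probe set gave 0.02 ± 0.19 (adjusted p = 0.94), so the 2 probe sets of this gene disagree in late lymphoma. Without the spleen the adjusted p was 0.056, against old normal tissue alone 0.14 and with the RNA quality ratios as covariates 0.11.

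Many markers of other cell types were also lower than in normal tissue. In early lymphoma against normal tissue, 8 of 9 T cell markers, 7 of 7 NK and cytotoxic markers, 6 of 6 dendritic markers and 6 of 7 macrophage markers were called lower, with median changes of -3.58, -2.08, -2.20 and -1.10. Plasma cell markers (4 of 5, median -1.52) and stromal and endothelial markers (6 of 7, median -1.16) were lower as well. In late lymphoma the counts were 9 of 9 T cell, 6 of 7 NK, 4 of 6 dendritic, 3 of 7 macrophage, 1 of 5 plasma cell and 5 of 7 stromal markers. There 1 macrophage marker, Cd68, was called higher (0.59 ± 0.24). Of 7 B cell markers, 2 were lower and 2 higher in early lymphoma, and 4 were lower and 0 higher in late lymphoma. Mean plasma cell levels were 8.69 to 10.5 in early lymphoma, 9.11 to 13.3 in late lymphoma and 10.9 to 12.3 in normal tissue, and stromal levels 8.73 to 9.81, 8.52 to 10.7 and 9.35 to 11.1. Mean levels of the NK list were 6.26 to 8.78 in early lymphoma, 6.52 to 9.53 in late lymphoma and 8.99 to 9.76 in normal tissue; those of the macrophage list were 9.72 to 11, 9.82 to 12 and 11.1 to 11.8, and those of the dendritic list 6.28 to 7.95, 6.26 to 9.78 and 9.15 to 9.71. The part of cell make-up in the differences from normal tissue was not tested; the T cell levels of early lymphoma and normal tissue do not overlap.

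Scaling also matters here, since the median intensity of an array was 124 to 206 in early lymphoma, 122 to 184 in late lymphoma and 183 to 198 in normal tissue. Centring each array on its median moved the median of all probe sets in early lymphoma against normal tissue from -0.12 to 0.22 and the share of calls that were higher from 41.6% to 65.1% (54.8% with quantile normalization). In late lymphoma against normal tissue the median moved from -0.09 to 0.19 and the share from 40.9% to 65.8% (55.3% with quantile normalization). The median change of the 10 genes moved with it, from -0.86 to -0.52 and from -0.67 to -0.39. After centring, 7 genes were lower and 1 higher in early lymphoma, and 6 were lower and 1 higher in late lymphoma; with quantile normalization 9 were lower and 1 higher in both. Psmb8 in early lymphoma (-0.15, adjusted p = 0.28) and B2m in late lymphoma (-0.21, adjusted p = 0.20) were no longer called.

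Late against early lymphoma is the comparison the study was designed for. Of the 10 genes, 3 were higher in late lymphoma and 0 were lower, beside 9.58% of all probe sets higher and 12.4% lower. At an unadjusted p under 0.05 the count was also 3. The median change was 0.22, from -0.09 to 0.51, and that of all probe sets 0.00. Tapbp was higher by 0.51 ± 0.13 (1.42-fold, adjusted p = 0.0058), with 10 of 25 late lymphomas above every early one but 2 below every early one. Tap2 was higher by 0.34 ± 0.11 (adjusted p = 0.017), with a median of 10.10 against 9.79, and was at 0.30 (adjusted p = 0.10) with the RNA quality ratios as covariates. Psmb8 was higher by 0.30 ± 0.10 (adjusted p = 0.027), with a median of 12.55 against 12.18, and was at 0.24 (adjusted p = 0.11) with centring on the median. The second Psmb8 probe set gave 0.09 ± 0.14 (adjusted p = 0.69), whereas the second Tapbp probe set gave 0.40 ± 0.12 (adjusted p = 0.016).

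The other 7 genes did not pass, with changes of 0.33 ± 0.18 for Tap1, 0.23 ± 0.22 for Nlrc5, 0.21 ± 0.15 for Psmb9, 0.21 ± 0.13 for Erap1, 0.17 ± 0.11 for H2-K1, 0.11 ± 0.11 for B2m and -0.09 ± 0.10 for Psmb10. The second Erap1 probe set went the other way, at -0.28 ± 0.13 (adjusted p = 0.12). The dimmer Tap1 probe set was called higher at 0.67 ± 0.22 (adjusted p = 0.028), and the dimmer 3 of H2-K1 were at 0.34 ± 0.15, 0.53 ± 0.23 and 0.35 ± 0.15 (adjusted p = 0.086, 0.092 and 0.095). For Nlrc5 the medians of the 2 lymphoma groups were both 9.44.

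These 3 calls did not hold with marker levels as covariates or without the 5 late lymphomas highest in plasma cell markers. The part of cell make-up in them was not tested. Markers differed between the groups: 5 of 7 B cell markers were lower in late lymphoma, and 4 of 5 plasma cell, 5 of 7 macrophage, 3 of 9 T cell and 2 of 6 dendritic markers were higher. With the mean levels of the T cell, NK and macrophage lists as covariates, 0 of the 10 genes were called and the changes were 0.18 for Tapbp, 0.09 for Tap2 and 0.11 for Psmb8 (adjusted p = 0.32, 0.55 and 0.54). With the B cell and plasma cell lists as covariates, 0 were called and the changes were 0.17, 0.11 and 0.13 (adjusted p = 0.58, 0.67 and 0.62). Without the 5 late lymphomas highest in plasma cell markers, 0 were called and the changes were 0.37, 0.22 and 0.26 (adjusted p = 0.069, 0.14 and 0.10). Without the 5 late lymphomas lowest in B cell markers, Tapbp (0.50) and Tap2 (0.33) were still called and Psmb8 was at 0.25 (adjusted p = 0.097). Without early lymphoma 6, 3 genes were called higher. The loss of calls was not particular to the 10 genes. With T cell, NK and macrophage covariates, 0 of 7 folding and loading helpers were called, where 6 were called without covariates. The other gene lists given below had 0 calls in that fit as well. The share of all probe sets called in these fits is not given here.

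**Figure D3:**
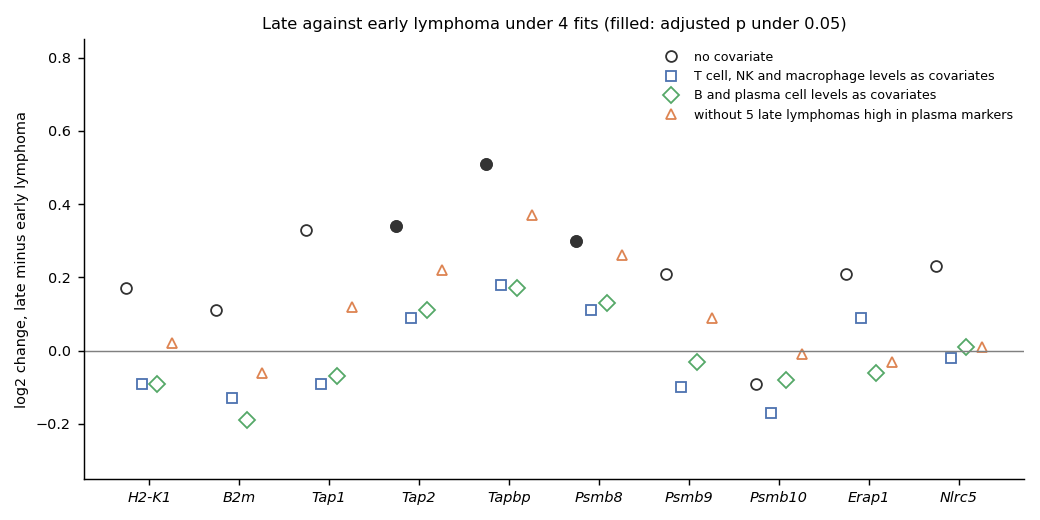
Log2 change of each gene between late and early lymphoma in 4 fits: with no covariate, with the T cell, NK and macrophage marker levels as covariates, with the B and plasma cell marker levels as covariates, and without the 5 late lymphomas highest in plasma cell markers; filled points passed an adjusted p of 0.05. Tap2, Tapbp and Psmb8 are filled in the fit with no covariate alone, at 0.34, 0.51 and 0.30.

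Each immunoproteasome subunit was then set against the standard subunit whose place it takes. On each array the log2 level of the standard subunit was subtracted, and the difference was compared between groups by permutation (two-sided, 100000 resamples, adjusted over 12 tests); only its change between groups has a meaning, since 2 probe sets are not on the same scale. The standard subunits were higher in early lymphoma than in normal tissue: Psmb5 by 0.77 ± 0.07, Psmb6 by 0.92 ± 0.06 and Psmb7 by 1.02 ± 0.09 (adjusted p = 2.4e-12, 3.6e-17 and 1.2e-12). In late lymphoma they were higher by 0.82 ± 0.07, 0.77 ± 0.11 and 0.75 ± 0.17.

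In early lymphoma the difference changed by -1.26 ± 0.10 for Psmb8 minus Psmb5, by -1.89 ± 0.14 for Psmb9 minus Psmb6 and by -1.21 ± 0.12 for Psmb10 minus Psmb7, each at p = 1e-05, the smallest that these resamples can give (adjusted p = 2e-05). All 25 early lymphomas lay below all 10 normal tissues in the first and second pair and 24 of 25 in the third. For Psmb10, which did not pass by itself, the difference joins a change of -0.19 ± 0.09 in Psmb10 with a rise of 1.02 ± 0.09 in Psmb7. It adds no evidence of a fall of Psmb10 itself. In late lymphoma the changes were -1.02 ± 0.09, -1.52 ± 0.17 and -1.03 ± 0.14 (adjusted p = 2e-05 for each), with 25, 22 and 19 of 25 late lymphomas below all normal tissues. By themselves Psmb8 (-0.20 ± 0.12) and Psmb10 (-0.28 ± 0.14) were not called there, while Psmb5 and Psmb7 rose by 0.82 and 0.75. These 2 differences add no evidence of a fall of Psmb8 or Psmb10 in late lymphoma.

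**Figure D4:**
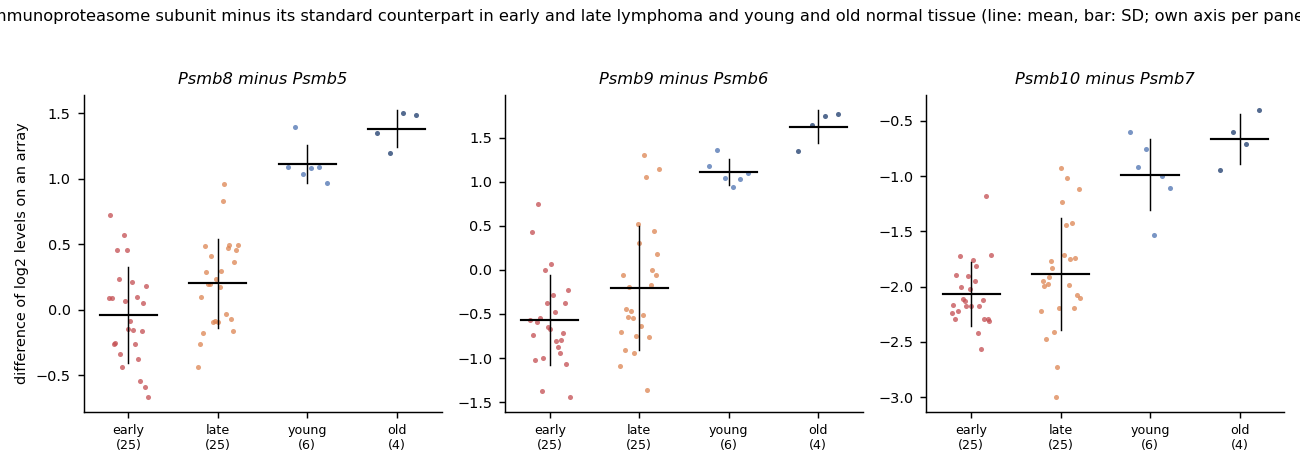
Difference of log2 levels on each array between Psmb8, Psmb9 and Psmb10 and their standard counterparts Psmb5, Psmb6 and Psmb7, by group (25 early and 25 late lymphomas, 6 young and 4 old normal tissues; line, mean; bar, SD). The lymphomas lie below normal tissue in each panel: Psmb9 minus Psmb6 runs from -1.44 to 0.75 in early lymphoma and from 0.95 to 1.77 in normal tissue.

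Between the lymphoma groups, the difference was higher in late lymphoma by 0.24 ± 0.10 for Psmb8 minus Psmb5 (adjusted p = 0.028). It was higher by 0.36 ± 0.17 for Psmb9 minus Psmb6 (adjusted p = 0.05, not under the threshold) and by 0.18 ± 0.12 for Psmb10 minus Psmb7 (adjusted p = 0.13). In normal tissue, old against young, an exact permutation test (two-sided, 4 against 6 tissues) gave 0.51 ± 0.11 for Psmb9 minus Psmb6 (p = 0.0095, adjusted p = 0.016), with 3 of the 4 old tissues above every young one. It gave 0.27 ± 0.09 for Psmb8 minus Psmb5 (adjusted exact p = 0.038, and 0.057 with quantile normalization) and 0.32 ± 0.17 for Psmb10 minus Psmb7 (adjusted exact p = 0.12).

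No single gene was called between old and young normal tissue. The contrast is not of age alone, since 1 of the 4 old tissues is a spleen and all 6 young ones are lymph nodes. With so few tissues, the lack of a call does not show the lack of a change. In old against young normal tissue 0 of 10 genes were called by limma, beside 0.812% of all probe sets higher and 0.568% lower, and 5 of 10 had an unadjusted p under 0.05. The median change was 0.28, from -0.14 (Erap1) to 0.38 (Psmb9, ± 0.10, adjusted p = 0.095). H2-K1 was at 0.31 ± 0.08 (adjusted p = 0.10) and B2m at 0.29 ± 0.08 (adjusted p = 0.12). In both genes the 3 old lymph nodes lay above every young tissue and the spleen did not. Plasma cell markers were higher in old normal tissue as well, 4 of 5 called, with mean levels of 11.9 to 12.3 against 10.9 to 11.2; their part in these values was not tested.

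Late minus early lymphoma, less old minus young normal tissue, sets the change with onset against the change with age. It was called for 0 of 10 genes, beside 0.0258% of all probe sets, and 0 of 10 had an unadjusted p under 0.05. Its values ran from -0.37 ± 0.23 for Psmb10 to 0.40 ± 0.31 for Tapbp. Within early lymphoma, the slope on log2 age was called for 0 genes (0 also unadjusted), beside 2% of probe sets with a rising and 6.98% with a falling slope. Within late lymphoma it was called for 0 genes, beside 0.0111% of all probe sets, and 6 of 10 had an unadjusted p under 0.05. The late slopes had a median of 0.59 per doubling of age, from -0.07 for Psmb10 to 1.10 ± 0.37 for Tap1 (adjusted p = 0.13). With array weights 4 genes were called in late lymphoma, and with centring on the median 2 were called in early lymphoma.

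The scatter within each lymphoma group was compared next. The SD was larger in late lymphoma for all 10 genes, beside 78% of all probe sets, with a median ratio of 1.71 beside 1.30. The ratio was 2.09 for Tapbp (SD 0.62 against 0.29), 1.86 for Tap1 (0.80 against 0.43) and 1.06 for Psmb8 (0.37 against 0.35). In permutation tests of the ratio 7 of 10 genes had an unadjusted p under 0.05, the lowest being 0.0023 for Tap1. The share of all probe sets that would pass this unadjusted test is not given here. In limma on absolute deviations from the group median, adjusted over all probe sets, 1 of 10 was called larger in late lymphoma, Tapbp (0.27 ± 0.09, adjusted p = 0.038), beside 10.1% of all probe sets. With centring on the median, and without the 5 late lymphomas highest in plasma cell markers, 0 were called, and 3 and 2 genes had an unadjusted p under 0.05; without early lymphoma 6, 3 were called. The largest ratio, 2.73 for Erap1, came with an unadjusted p of 0.089 and with the few late lymphomas of very high Erap1.

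The genes varied together from tumour to tumour. Of 45 pairs, 25 correlated at an adjusted p under 0.05 (permutation, adjusted over 90 pairs) in early lymphoma and 30 in late lymphoma, and 0 of those were negative. How often pairs of other genes pass in the same tumours is not given here. These counts therefore do not show that the genes vary together more closely than others do. The part of cell make-up in these correlations was not tested. The closest pair was B2m and H2-K1 (r = 0.89 in early and 0.95 in late lymphoma, adjusted p = 0.0001 in both; rho = 0.86 and 0.93, adjusted p = 0.00013; without the 2 outermost arrays 0.85 and 0.93). Tap1 and Psmb9, which share their promoter region, had r = 0.86 and 0.85 (adjusted p = 0.0001 in both; rho = 0.90 and 0.86, adjusted p = 0.00013; 0.85 and 0.83 without 2 arrays). Psmb10 and Erap1 had the lowest median correlation with the rest, 0.31 and 0.18 in early lymphoma and 0.16 and 0.42 in late lymphoma, while that of Tap1 was 0.62 and 0.78.

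At the extremes, early lymphoma 6, the array lowest in B cell markers of its group, was among the 5 highest of its group in 9 of 10 genes and early lymphoma 26 among the 5 lowest in 8. Late lymphoma 129 was among the 5 highest in all 10 genes, late lymphoma 120 in 8 and late lymphoma 128 in 7. Late lymphomas 121 and 123 were among the 5 lowest in 8 and 7 genes. Late lymphomas 129, 120 and 128 were also high in NK markers (9.40, 9.53 and 9.01, median of late lymphoma 7.4) and T cell markers (10.19, 9.19 and 9.61, median 8.58). Of these, 129 and 120 are among the 5 highest in plasma cell markers (13.2 and 13.3, median 10.2). Late lymphomas 137, 125 and 138, also among those 5, were among the 5 highest in 6, 3 and 2 genes. The part of these cells was not tested.

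Nlrc5 was set against each of the other 9 genes in each lymphoma group (18 correlations, two-sided permutation, adjusted over the 18). How often genes outside the pathway pass against Nlrc5 is not given here, so the counts do not show a closer link than elsewhere. In early lymphoma 5 of 9 passed, and the highest was Tap1 with r = 0.67 (adjusted p = 0.00085) and rho = 0.69 (adjusted p = 0.00072), and r = 0.63 without the 2 arrays farthest from the median of Nlrc5. Psmb9 followed with r = 0.61 (adjusted p = 0.0049) and rho = 0.67 (adjusted p = 0.00072), 0.62 without 2 arrays. In late lymphoma 7 of 9 passed, with H2-K1 at r = 0.73 (adjusted p = 0.00054) and rho = 0.79 (adjusted p = 0.00018), 0.69 without 2 arrays, and Psmb9 at r = 0.73 (adjusted p = 0.00054) and rho = 0.72 (adjusted p = 0.00042), 0.68 without 2 arrays.

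Psmb10 did not follow Nlrc5, with r = -0.09 (rho = -0.15) in early and -0.20 (rho = -0.31) in late lymphoma, adjusted p = 0.67 and 0.42 (0.51 and 0.16 for rho). Psmb8 had r = 0.35 (rho = 0.34) in early and 0.09 (rho = 0.08) in late lymphoma (adjusted p = 0.11 and 0.67; 0.12 and 0.71 for rho). Without early lymphoma 6 the early correlation with H2-K1, 0.46 over all 25, was 0.41 and did not pass (adjusted p = 0.067). Without the 5 late lymphomas highest in plasma cell markers, the late correlations with Tapbp and Erap1 were 0.33 and 0.10 and did not pass (adjusted p = 0.21 and 0.77). Tumours also differ in their content of other cells, whose part in these correlations was not tested.

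**Figure D5:**
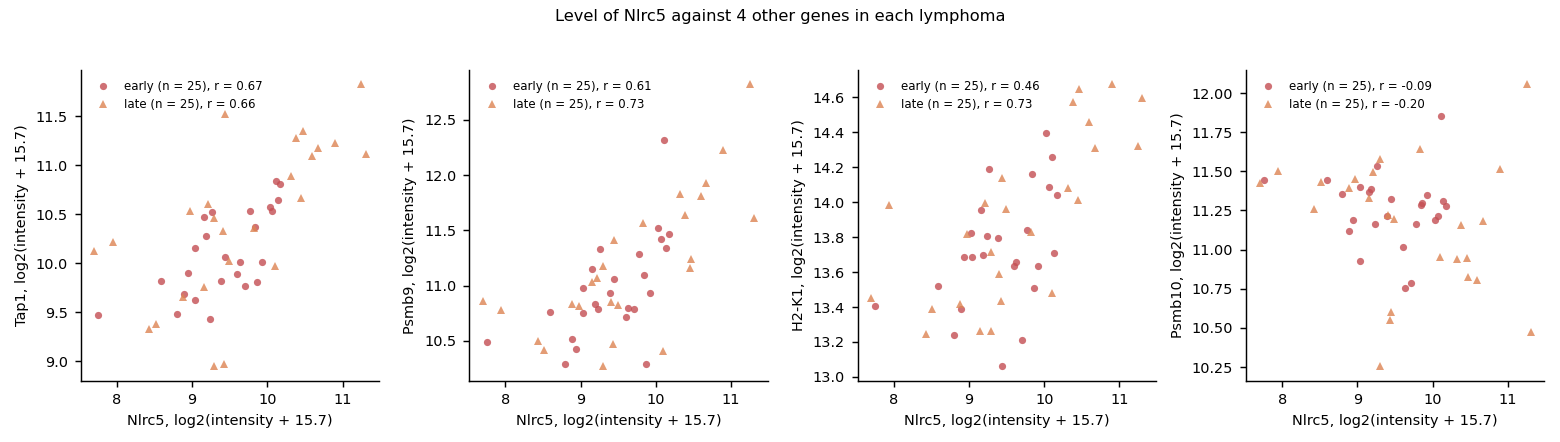
Level of Nlrc5, log2(intensity + 15.7), against the levels of Tap1, Psmb9, H2-K1 and Psmb10 in each of 25 early (circles) and 25 late lymphomas (triangles). Tap1, Psmb9 and H2-K1 are high where Nlrc5 is high (r of 0.46 to 0.73), and Psmb10 is not (r = -0.09 and -0.20).

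As a description with no test, the genes, other than the 10, whose level over the 50 lymphomas, centred on each onset group, was most like the mean of the 10 were H2-D1 (r = 0.89), H2-M3 (0.87), Parp9 (0.84), Ccl5 (0.83), H2-Q5 (0.82), Igtp (0.82), Iigp1 (0.81), Ifitm3 (0.81), Epsti1 (0.80) and Lgals3bp (0.80). H2-D1, H2-M3 and H2-Q5 are class I heavy chains, Igtp and Iigp1 are interferon-inducible GTPases, and Ccl5 is a chemokine of T and NK cells. Without the 2 arrays farthest from the median, these correlations ran from 0.76 to 0.91. Parp9 had changes of -1.17 ± 0.09 in early and -1.09 ± 0.17 in late lymphoma against normal tissue, and Epsti1 of -2.85 ± 0.17 and -2.72 ± 0.25, all called lower.

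The other genes of class I presentation, from lists chosen with earlier results of these data known, were compared list by list. The counts of every list below stand beside 39.8% of all probe sets lower and 28.4% higher in early lymphoma against normal tissue. In late lymphoma against normal tissue the shares were 32.4% and 22.4%, and in late against early lymphoma 12.4% and 9.58%. Of 9 other class I and class I-like heavy chains kept by the filter, of 11 measured, 8 fell in early lymphoma against normal tissue (median -1.09): H2-M3, which presents bacterial formylated peptides, was at -1.99 ± 0.16, Fcgrt, the neonatal Fc receptor, at -1.49 ± 0.18, Hfe at -1.47 ± 0.10 and H2-T24 at -1.32 ± 0.11. In late lymphoma 6 fell (3 after centring on the median), with H2-M3 at -1.58 ± 0.27 and Cd1d1, which presents lipids, at -0.93 ± 0.20. Between the lymphoma groups H2-T24 (0.85 ± 0.24), H2-Bl (0.64 ± 0.18) and Fcgrt (0.64 ± 0.20) were higher in late lymphoma, and 0 of the 9 were called with T cell, NK and macrophage levels as covariates.

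Folding and loading helpers split. In early lymphoma 4 of 7 fell and 2 rose: Tapbpl, a relative of tapasin, was at -1.99 ± 0.14, the chaperone Hspa5 at -0.62 ± 0.13 and calreticulin (Calr) at -0.34 ± 0.07, while calnexin (Canx) was at 0.51 ± 0.05. After centring on the median 1 fell and 3 rose. In late lymphoma Tapbpl was at -1.41 ± 0.32 and 3 genes were higher, Canx (0.64 ± 0.07), Sec61b (0.61 ± 0.14) and Sec61a1 (0.57 ± 0.18), the last 2 being parts of the translocation channel. Against early lymphoma 6 of 7 were higher in late lymphoma, Hspa5 (0.63 ± 0.15) and Sec61a1 (0.59 ± 0.12) most; 2 were called without the 5 late lymphomas highest in plasma cell markers.

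The standard proteasome did not follow Psmb8 and Psmb9. All 14 of them rose in early lymphoma (median 0.88), with Psmb3 at 1.18 ± 0.08 and Psma6 at 1.14 ± 0.09. All 14 also rose in late lymphoma (median 0.76). These counts were also 14 with quantile normalization and with centring on the median. Of this list only Psmb5, Psmb6 and Psmb7 are replaced in the immunoproteasome, so its rise is not a rise of the standard form alone. Of 8 activator and assembly genes 7 rose in each comparison with normal tissue, with the assembly chaperones Psmg1 at 1.65 ± 0.07, Psmg3 at 1.43 ± 0.08 and Psmg2 at 1.40 ± 0.07 in early lymphoma. Psme1, a subunit of the interferon-inducible activator, was the exception at -0.14 ± 0.08 (adjusted p = 0.12). Of 5 cytosolic peptidases 3 rose in early lymphoma, Thop1 (2.53 ± 0.14), Blmh (1.32 ± 0.08) and Lap3 (1.27 ± 0.09).

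Among 14 measured regulators, 11 fell and 2 rose in early lymphoma and 10 fell and 2 rose in late lymphoma. Relb, an NF-kB subunit, was at -3.26 ± 0.26 and -2.74 ± 0.24, Ciita, the class II counterpart of Nlrc5, at -2.29 ± 0.22 and -2.04 ± 0.31, and Irf9, part of the interferon-activated complex, at -1.71 ± 0.11 and -1.25 ± 0.20. Ezh2, a histone methyltransferase, was at 1.95 ± 0.11 and 1.23 ± 0.28. All 7 interferon receptor and kinase genes kept by the filter, of 8 measured genes of that list (Ifng was too dim), fell in early lymphoma, with Jak1 at -1.65 ± 0.13 and Jak2 at -1.31 ± 0.14, and 5 of 7 fell in late lymphoma. Late lymphoma was above early lymphoma in Ifnar2 (0.97 ± 0.21), Jak2 (0.45 ± 0.17), Irf9 (0.46 ± 0.14) and Stat2 (0.46 ± 0.13), and below it in Ezh2 (-0.71 ± 0.19) and Creb1 (-0.43 ± 0.11); with T cell, NK and macrophage levels as covariates 0 of the 14 regulators and 0 of the 7 receptor and kinase genes were called.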

How the data were processed

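The deposited table holds linear MAS5 intensity values, per the submitters' processing notes; the authors' software version is not given in the sources used here. The mean of each array after trimming 2% at each end was 500.0 on all 60 arrays, so the values were scaled per array. RNA was labelled from 6 µg per array. The description of every sample speaks of embryos, which no other label bears out, and was disregarded. Intensities were analysed as log2(intensity + 15.7), where 15.7 is the table's median, 157.191, divided by 10. Probe sets above their array's median on at least 10 arrays were kept (27094). The platform annotation gives 1 gene to 34958 probe sets, several to 932 and none to 9211; 34754 of the first matched RefSeq. Comparisons used limma 3.58.1 in R 4.3.3, fitted separately for each comparison with a mean-variance trend (eBayes). Benjamini-Hochberg adjustment was over all kept probe sets. Permutation tests were written with numpy 2.4.6, and the limma fits were tested on simulated data. The number of arrays limits the precision. The 10 genes and the gene lists were chosen with earlier results of these data known. Named genes are the 10, the 10 most alike, and the genes of each list with the largest called changes; the few others were chosen after their values were seen. Alternatives were pseudocount, filter, scaling, covariates, probe set, left-out tissues and a replicate block. Replicate numbers were not taken as pairs, since no label says that they pair samples.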

Additional observations from a re-analysis of the deposited data

How the results depend on the processing

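Of 708 recomputed values under alternative settings, 640 kept direction and side of the threshold (counts within 1.5 times), 26 no longer passed, 9 newly passed, 15 counts moved and 18 values changed sign. The cause was not tested for any of them. Between late and early lymphoma, the count of genes called higher was 0 with either set of marker covariates and without the 5 late lymphomas highest in plasma cell markers. With T cell, NK and macrophage levels the changes were -0.13 for B2m, -0.09 for H2-K1, -0.09 for Tap1, -0.10 for Psmb9 and -0.02 for Nlrc5. With B and plasma cell levels they were -0.19 for B2m, -0.09 for H2-K1, -0.07 for Tap1, -0.03 for Psmb9 and -0.06 for Erap1. Without the 5 lymphomas B2m was at -0.06 and Erap1 at -0.03. Psmb10 was at 0.07 with RNA ratios, and the second Erap1 probe set at -0.28. Against normal tissue, centring on the median gave 0.15 for Psmb10 in early and 0.08 for Psmb8 in late lymphoma. The count called higher was 0 in early lymphoma with all 60 arrays in 1 fit. In late lymphoma it was 0 with RNA ratios, without the spleen, against old tissue only and with second probe sets. Slopes on age gave 2 calls in early lymphoma with centring and 4 in late lymphoma with array weights. With quantile normalization Psmb8 minus Psmb5 in old against young tissue was 0.23 (adjusted exact permutation p = 0.057), and Psmb9 minus Psmb6 in late against early lymphoma was 0.36 (adjusted permutation p = 0.049). With centring, r of Nlrc5 was 0.08 with Psmb10 in early and -0.01 with Psmb8 in late lymphoma. Genes with an unadjusted spread p under 0.05 numbered 3 with centring and 2 without the 5 lymphomas, and limma on deviations called 0 in both and 3 without early lymphoma 6; these settings, the spread test on all probe sets and the lymphomas left out were chosen after seeing the data. Leaving out each old tissue in turn gave 0 calls each time by limma for age and for the difference of contrasts.

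With the replicate block, over the 9 numbers that early lymphomas and normal tissues share, 1 gene was higher and 8 were lower, as without it on those arrays. Correlations of same-numbered samples ran from -0.08 to 0.13, with 1 of 9 over 0.1. The labels give these samples only a number in common. Low correlations between a tumour and a normal tissue cannot show that nothing else is shared.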
